A study of Homo sapiens with 20 samples.

Results

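RNA bound to chromatin was compared between human embryonic kidney cells in which Ago2 was depleted by an inducible short hairpin RNA and wild-type cells. The comparison rests on 4 samples, 2 labelled shAgo2 and 2 labelled wt, out of 20 samples in the series, of which 14 have a quantification file. Members were chosen by their labels alone, and the counts of all transcripts of a gene were summed before any test. The study asked which small RNAs cut by Dicer from transfer RNA act with Ago2 on nascent transcripts, and it measured chromatin RNA after depletion of Dicer, Ago2 or Drosha. The chromatin samples are labelled as the line HEK293, and the study's methods name HEK293T for the wild type. The shAgo2 cells are a stable line derived from HEK293T-REx cells that makes a hairpin against AGO2 once doxycycline is added, and they were induced with 3 µg/ml doxycycline for 72 h. The shDicer cells were made the same way, while the Drosha hairpin was transfected as a plasmid, and both serve below as groups for direct comparison (2 samples each). The wt samples are titled as controls, with a wild-type genotype. Whether they are of the HEK293T-REx parent or received doxycycline is not stated in the sources used here, and no line with an unrelated hairpin is among the chromatin samples. Loss of Ago2, doxycycline, expression of a hairpin and differences between the derived line and the wt cells therefore cannot be told apart in this comparison. The labels do not say that replicates came from separate cultures, so p-values measure only the spread between these samples.

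Argonaute proteins hold a small RNA as a guide and bind transcripts that pair with it. Ago2 is the human Argonaute best known for cutting a fully paired target, and with GW182 proteins it also recruits the enzymes that shorten the poly(A) tail and remove the cap of microRNA targets in the cytoplasm. Argonautes have been found in the nucleus as well, where the RNA still attached to chromatin is largely nascent.

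Estimated counts per sample were 18222946 and 17484067 in wt and 21553760 and 19663638 in shAgo2 samples, and between 93.4% and 94.0% of the counts of the 8 chromatin samples belonged to annotated transcripts. Values are given as CPM, counts scaled to a common library total with TMM factors. Replicates differed by more than sampling noise, by a median of 0.141 in wt and 0.127 in shAgo2 samples on the log2 scale. In a two-dimensional scaling of all 8 samples the first dimension, with 67.0% of the variance, put shAgo2 beside shDicer and wt beside DroshaKD. Blood markers were low, with a summed level of 9.37 and 9.47 CPM in wt and 3.59 and 3.33 CPM in shAgo2 samples, and CD3E was at 0 in both wt samples. Epithelial markers moved with the comparison, from a summed 71.3 and 68.3 CPM to 160.2 and 163.6 CPM, through EPCAM and KRT8. Of the 5 genes known from this line, NEFL and LIN28B were higher and NEFM and INA lower in shAgo2 samples. LIN28B had 25.4 and 26.7 CPM in wt against 46.2 and 50.7 CPM, INA 27.6 and 29.8 CPM against 8.21 and 10.2 CPM, and PAX2, at 11.2 and 10.4 against 15.8 and 12.8 CPM, did not pass. In bulk RNA, fewer cells of a type and less RNA per cell cannot be told apart.

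AGO2 itself was lower in the chromatin RNA of the shAgo2 samples. Its level was 239.8 and 255 CPM in wt and 162 and 159.6 CPM in shAgo2 samples, and the groups did not overlap. The log2 fold change was -0.62, with an SE of 0.0832 and an adjusted p of 9.29e-05. Against shDicer samples, with 222 and 241 CPM, AGO2 differed by -0.52 (adjusted p = 0.00245), and against DroshaKD samples, with 254 and 228 CPM, by -0.58 (adjusted p = 1.73e-04). The main coding transcript, AGO2-201, fell from 158.7 and 175.6 CPM to 108.8 and 102.8 CPM. When counts were rebuilt from TPM with transcript lengths, the change of the gene was -0.44 (adjusted p = 0.00555) and missed the threshold.

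The other Argonautes and the proteins they work with moved in both directions. AGO1 and AGO3, which lie side by side on chromosome 1, were lower, with log2 fold changes of -0.45 (SE 0.0751) and -0.37 (SE 0.0748), while the median of the 50 genes nearest to AGO1 was -0.32. With that neighbourhood median as an offset, AGO1 changed by -0.13 (adjusted p = 0.195) and AGO3 by -0.056 (adjusted p = 0.595). AGO4, from the same cluster, had 46.96 and 48.1 CPM in wt and 53.2 and 54.9 CPM in shAgo2 samples and did not pass (adjusted p = 0.0585). With its neighbours as an offset, AGO4 changed by 0.57 and passed (adjusted p = 8.81e-05). DICER1, which cuts small RNA precursors, rose from 119 and 124 CPM to 204 and 214 CPM, a log2 fold change of 0.78 (SE 0.0926). It passed against shDicer (0.95) and DroshaKD samples (0.59) as well, but not against wt with the TPM-based counts (0.35, adjusted p = 0.0148). TARBP2, the partner of Dicer that binds double-stranded RNA, fell from 43.9 and 44.1 CPM to 21.3 and 22.98 CPM with a log2 fold change of -0.99 (SE 0.0817). XPO5, which exports microRNA precursors, had 366 and 391.7 CPM and 298 and 318 CPM and did not pass (adjusted p = 0.0327). Of the 13 genes of small RNA production and action, 1 rose and 6 fell, against 2 and 3 with neighbouring genes as an offset. Across all 32874 genes tested, 12.5% rose and 12.1% fell at an adjusted p under 0.005.

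The study worked with synthetic tRNA-derived small RNAs (tsRNAs), each named for the gene it was predicted to target, and these genes were among those followed in chromatin RNA. Their sequences are shown because the genes named in them are described next. They are written 5′ to 3′, and capitals mark bases 2 to 8, the stretch by which Argonaute-bound small RNAs usually start to pair.
tsRNA SPINT1: cGAGUCUCgguggaaccuuugu
tsRNA LINC00665: gGGGGUGUagcucaguggua
tsRNA EGFR/MET: uCCCUGGUggucuagugguuag
tsRNA BCL2: uAAGCCAGggauuguggguucg

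Each gene named after one of these tsRNAs was higher in shAgo2 samples. The study predicted its targets among genes raised in shDicer mRNA, and again among genes raised in shDicer and shAgo2 chromatin RNA. A rise of these genes is therefore a description and no independent support for the predictions. SPINT1, a membrane inhibitor of serine proteases (chromosome 15, 40844018 to 40858207 in GRCh38), had 1.13 and 1.20 CPM in wt and 15.5 and 13.97 CPM in shAgo2 samples, and LINC00665, a long non-coding RNA (chromosome 19, 36259540 to 36331770), had 45.95 and 46.9 CPM and 419 and 421 CPM. MET, the receptor of hepatocyte growth factor, rose from 33.03 and 34.6 CPM to 115 and 109.9 CPM, and EGFR, the receptor of epidermal growth factor, from 33.3 and 39.5 CPM to 77.9 and 66.3 CPM. In each of these 4 genes both shAgo2 samples lay above both wt samples. BCL2, which blocks apoptosis, had 26.7 and 25.3 CPM and 39.2 and 39.5 CPM, the smallest step of the 5. Without wt replicate 1, EGFR changed by 0.86 and did not pass (adjusted p = 0.00537), and BCL2 did not pass with its neighbours as an offset (0.23, adjusted p = 0.0538). Compared directly with shDicer samples, only LINC00665 of these 5 genes passed, with 293 and 283 CPM in shDicer samples and a difference of 0.54 (adjusted p = 7.17e-04), while that of SPINT1 was -0.33 (adjusted p = 0.122) and that of MET 0.31 (adjusted p = 0.0604). Against DroshaKD samples all 5 were higher in shAgo2 samples, by 3.58 for SPINT1, 3.21 for LINC00665, 1.51 for MET, 1.04 for EGFR and 0.63 for BCL2.

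The other genes the study followed in nuclear RNA rose as well. Those it predicted as targets were drawn from raised genes in the same way. GK, glycerol kinase, rose from 16.6 and 18.7 CPM to 128 and 121 CPM with a log2 fold change of 2.82 (SE 0.106), and had 35.05% of its 31-base subsequences shared with other genes. GUCY1A2, a subunit of the nitric oxide receptor guanylate cyclase, rose from 1.72 and 2.34 CPM to 24.8 and 24.2 CPM. RBP7, a retinol carrier, rose from 1.90 and 1.71 CPM to 5.31 and 4.69 CPM, and CNN3-DT, divergent from the calponin gene CNN3, from 3.02 and 3.22 CPM to 10.3 and 11.5 CPM. CCN3, a secreted matrix protein also called NOV, had 0.0593 and 0.316 CPM in wt, from 1 and 5 counts, against 2.21 and 2.51 CPM in shAgo2 samples. Of the genes the study used as controls, HPRT1 (-0.21, adjusted p = 0.156) did not pass. GAPDH passed, from 438 and 469 CPM to 269 and 317 CPM with a log2 fold change of -0.63 and an adjusted p of 0.00437, but not with DESeq2 (adjusted p = 0.0186) or when any one sample was left out. ETNK1, a further control, had 69.6 and 74.7 CPM and 53.4 and 53.2 CPM and did not pass (adjusted p = 0.00808). It passed with no filter on low counts (-0.45, adjusted p = 0.00206) and with the 2 groups alone (-0.44, adjusted p = 2.08e-05). TBCEL (-0.037, adjusted p = 0.827) and EEF1A1 (-0.38, adjusted p = 0.119), which the study followed as loci of transcriptional silencing, did not pass either. EEF1A1 passed with the 2 groups alone (-0.38, adjusted p = 0.00118) and with neighbouring genes as an offset (-0.91, adjusted p = 0.00248).

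**Figure D1:**
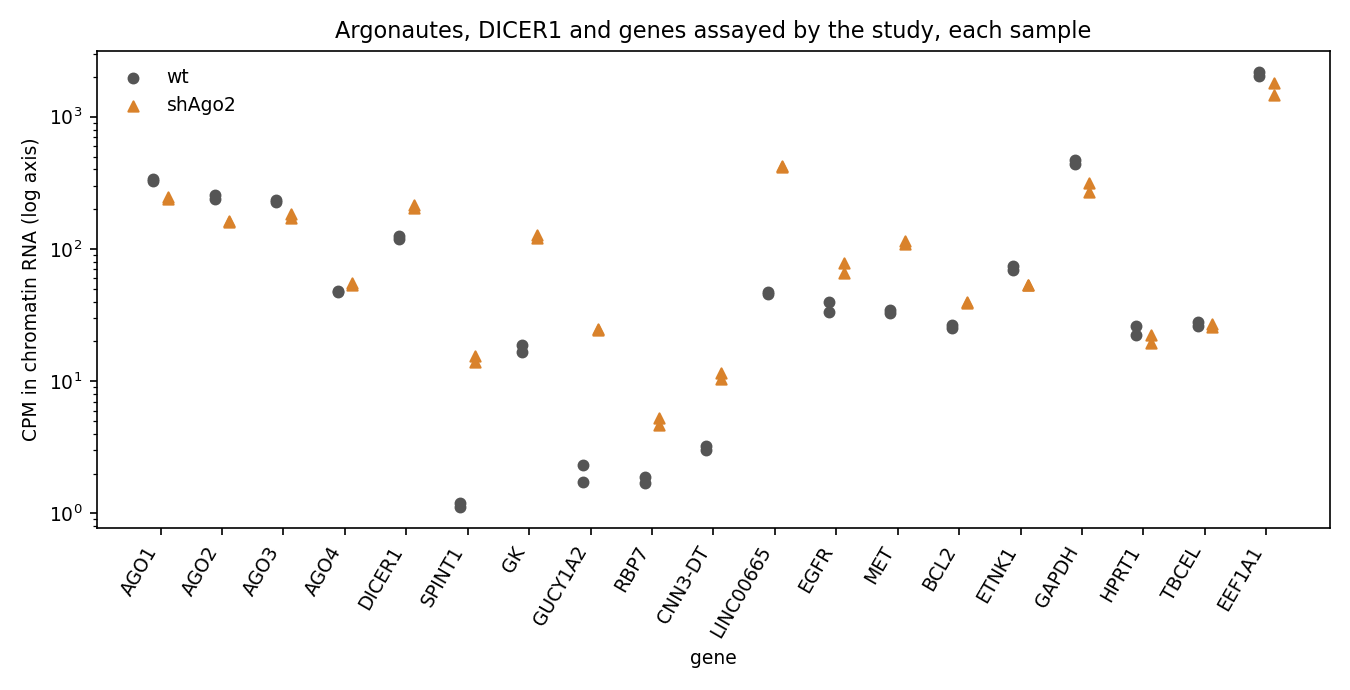
CPM in chromatin RNA (log axis) of the Argonautes, DICER1 and the genes followed by the study in each of 2 wt (circles) and 2 shAgo2 samples (triangles). AGO2 sits lower in both shAgo2 samples, SPINT1, GK, GUCY1A2, LINC00665 and MET sit well above wt, and TBCEL overlaps between groups.

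Chromatin RNA of 4098 genes was raised and of 3971 genes lowered in shAgo2 samples, 12.5% and 12.1% of the genes tested. The median log2 fold change of all tested genes was 0.0028. The median log2 fold change was 1.04 among raised and -0.76 among lowered genes. More than a 4-fold change was found for 845 raised and 306 lowered genes. In all 4098 raised and all 3971 lowered genes the 2 groups did not overlap, so a lack of overlap adds nothing to a call. Raised genes had a lower level in wt, with a median of 8.68 CPM, than lowered genes, with 40.5 CPM, and the median of all tested genes was 6.81 CPM. The wt level enters the fold change that sorted the genes, and genes near 0 in wt passed the filter only through other groups. This difference in level therefore follows in part from the selection. Raised genes were also longer in the genome, with a median span of 33.4 kb against 21.0 kb for lowered genes and 13.1 kb for all tested genes. When any one of the 4 samples was left out, between 2341 and 2682 genes were raised and between 2004 and 2324 lowered. With the median of the 50 neighbouring genes as an offset, 2688 of the raised and 1938 of the lowered genes stayed so.

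Among transcript types, long non-coding RNA took a larger share of the counts in shAgo2 samples and retained-intron transcripts a smaller one. Long non-coding RNA had 13.7% and 13.4% of annotated counts in wt and 15.5% and 15.2% in shAgo2 samples. NEAT1 alone had 0.069% and 0.075% in wt and 0.721% and 0.635% in shAgo2 samples, and without it the difference in the long non-coding share was 1.15 instead of 1.76 percentage points. Transcripts with a retained intron had 17.3% and 16.9% in wt and 15.9% and 15.8% in shAgo2 samples. Coding transcripts had 53.0% and 53.5% against 52.5% and 52.8%, a difference of -0.60 percentage points. Mitochondrial mRNA went from 0.445% and 0.478% to 0.741% and 0.745%, and small nucleolar and Cajal body RNAs, the guides of RNA modification, went from 0.525% and 0.594% to 0.433% and 0.427%. In each of these types the groups did not overlap, but an exact permutation test of 2 against 2 samples cannot give a p below 0.333, so no call was made.

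**Figure D2:**
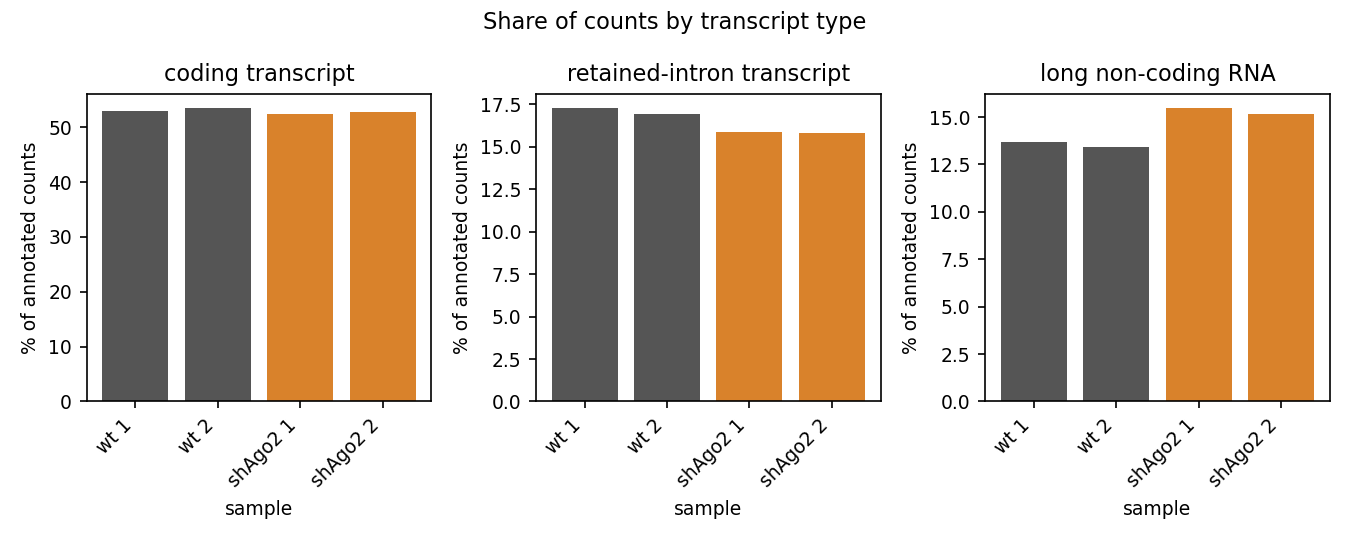
Percentage of annotated counts (vertical axis, from 0) in coding transcripts, retained-intron transcripts and long non-coding RNA, one bar per sample (grey wt, orange shAgo2). Retained-intron bars are lower and long non-coding bars higher in both shAgo2 samples.

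Biotypes were also counted by gene. Of 16672 protein-coding genes 2669 (16.01%) rose and 3125 (18.7%) fell, with a median log2 fold change of -0.027. Of 9548 long non-coding RNA genes 893 (9.35%) rose and 546 (5.72%) fell, and their median was 0.05. Of 3122 processed pseudogenes 298 (9.55%) rose and 148 (4.74%) fell, and of 487 unprocessed pseudogenes 67 (13.8%) rose and 24 (4.93%) fell. Of these raised shares, only those of unprocessed pseudogenes and of protein-coding genes were above the 12.5% of all genes. Small nucleolar RNAs had a median of -0.25, with 12 raised and 25 lowered of 309. Among 360 microRNA precursors 11 rose and 10 fell.

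The genes with the largest increases were barely detected or absent in wt samples. MGMT, which repairs alkylated guanine in DNA, had 0 counts in both wt samples and 888 and 773 counts (43.7 and 42.2 CPM) in shAgo2 samples, at least 239.5-fold higher than a floor of 3 counts per library. KRT19, a keratin of simple epithelia, had 0 counts in wt and 16.5 and 16.9 CPM in shAgo2 samples, at least 93.02-fold higher. FLG and HRNR, neighbouring genes for proteins of the skin barrier, had 1 and 2 and 0 and 1 counts in wt against 70.7 and 72.3 CPM and 70.1 and 69.4 CPM in shAgo2 samples. Against shDicer samples the differences of MGMT, FLG and HRNR did not pass, at 0.083 (adjusted p = 0.679), -0.044 (adjusted p = 0.818) and 0.068 (adjusted p = 0.730). In both DroshaKD samples MGMT had 0 counts. ERBB4, a receptor of neuregulins, rose from 0.415 and 0 CPM to 91.2 and 84.8 CPM and ANOS1, an adhesion protein of the extracellular matrix, from 0.119 and 0.126 CPM to 38.4 and 36.4 CPM. PEG10, an imprinted gene derived from a retrotransposon, rose from 0.296 and 0.758 CPM to 159 and 170.1 CPM, and SLFN11, which blocks stressed replication forks, from 1.13 and 1.01 CPM to 141 and 157 CPM. RIOX1, a histone and ribosomal protein hydroxylase, rose from 0.237 and 0.316 CPM to 44.01 and 39.4 CPM, and STAC, an adaptor of calcium channels, from 0.296 and 0.379 CPM to 26.8 and 28.2 CPM. YPEL4, of unclear function, rose from 0.0593 and 0.0632 CPM to 35.4 and 36.7 CPM and was also higher than in shDicer samples by 0.74 (adjusted p = 9.58e-04). In all of these genes both shAgo2 samples lay far above both wt samples.

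In all, 201 raised genes with a symbol had at most 3 counts in both wt samples, 69 of them protein-coding and 37 long non-coding. Of these 201 genes, 180 had more than 3 counts in both shDicer samples and 123 had at most 3 in both DroshaKD samples. They were picked by their counts in wt and shAgo2 samples, so these numbers are a description. In the other direction, 75 lowered genes with a symbol had at most 3 counts in both shAgo2 samples. KRT32 and KRT35, keratins of hair, had 156 and 149 and 108 and 102 counts in wt and 0 in shAgo2 samples, at least 60.02-fold and 41.3-fold lower.

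The protein-coding genes with the largest decreases, named by rule, included transcription factors. PLAGL1, an imprinted zinc finger factor, fell from 28.1 and 28.6 CPM to 0.688 and 0.655 CPM, and NHLH2, a neuronal transcription factor, from 16.9 and 19.3 CPM to 0.639 and 0.546 CPM. BCL6B, a transcriptional repressor, fell from 28.3 and 24.6 CPM to 1.48 and 1.75 CPM. In these 3 regulators both shAgo2 samples lay far below both wt samples. PCDH19, a protocadherin of the X chromosome, fell from 20.4 and 20.6 CPM to 1.18 and 0.546 CPM, and PTGFR, the receptor of prostaglandin F2alpha, from 27.04 and 26.5 CPM to 0.983 and 1.42 CPM. NEFM, the medium neurofilament chain, fell from 24.1 and 24.8 CPM to 1.18 and 0.655 CPM, while NEFL, the light chain, rose from 13.1 and 10.9 CPM to 89.3 and 91.3 CPM. MAP7D2, which binds microtubules, had a log2 fold change of -4.38 (SE 0.190), and VILL, a relative of the actin-binding villin, one of -4.68 (SE 0.200). U2AF1, which recognises the 3′ splice site, had 179 and 212 CPM and 8.02 and 7.97 CPM, but it has a near-identical copy on chromosome 21 of this build, so its value is uncertain. TAP2 and VPS52, at -5.87 (SE 0.261) and -4.76 (SE 0.157), lie in or beside the major histocompatibility complex (MHC), where the transcript set can hold further haplotype copies, and are uncertain too. TAP2 changed by -0.86 with the TPM-based counts (adjusted p = 0.00603) and did not pass.

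Among long non-coding RNAs, NEAT1, the scaffold of paraspeckles, was the most abundant of those named. Its level was 699.8 and 776 CPM in wt and 7159 and 6382 CPM in shAgo2 samples, a log2 fold change of 3.20 with an SE of 0.135 and an adjusted p of 8.50e-09. It had a difference from shDicer samples of -0.19 (adjusted p = 0.417). LINC01535 rose from 2.91 and 3.16 CPM to 92.8 and 90.4 CPM, CYTOR from 7.29 and 7.77 CPM to 68.7 and 78.5 CPM and PAPLN-AS1 from 2.85 and 3.47 CPM to 37.2 and 35.2 CPM. LINC02506 rose by 3.23 (SE 0.137) and LINC01943 by 3.19 (SE 0.134). Decreases included HYMAI, the imprinted RNA that overlaps PLAGL1, from 35.7 and 38.9 CPM to 0.295 and 0.382 CPM. HOTAIR, transcribed from the HOXC cluster, fell from 18.8 and 19.5 CPM to 2.61 and 2.73 CPM, and HOXC-AS2 of the same cluster from 47.2 and 45.6 CPM to 9.93 and 9.99 CPM. DIRC3 changed by -2.52 (SE 0.153), LINC00839 by -2.51 (SE 0.144) and LINC01605 by -2.03 (SE 0.135). Of the 7 paraspeckle and speckle proteins listed, 1 rose and 4 fell, among them RBM14 (log2 fold change -0.83, SE 0.0887), and the members that fell did not pass with neighbouring genes as an offset.

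Divergent, antisense and intergenic RNAs had raised shares of 10.9%, 12.1% and 8.29%, none above the 12.5% of all genes. Their lowered shares were 4.52%, 7.17% and 4.10%, under the 12.1% of all genes. Long non-coding RNA genes as a class had 9.35% raised and 5.72% lowered. Against that class, divergent and antisense RNAs had larger raised shares and antisense RNAs a larger lowered share. Of 487 divergent transcripts 53 rose and 22 fell, with a median log2 fold change of 0.11. Of 1451 antisense RNAs 176 rose and 104 fell, and of 1219 long intergenic RNAs 101 rose and 50 fell, with medians of 0.085 and 0.084. With DESeq2, 30 divergent and 62 long intergenic RNAs were raised and 33 long intergenic RNAs lowered, and with neighbouring genes as an offset 67 antisense RNAs were lowered. Of 56 microRNA host genes 5 rose and 9 fell, and MIR99AHG, which carries miR-99a and let-7c, rose from 5.40 and 6.50 CPM to 26.8 and 29.1 CPM. MIR4458HG had 3.97 and 5.37 CPM in wt and 0 counts in shAgo2 samples. Host genes of small nucleolar RNAs fell more often, 9 of 29 with 1 raised, and SNHG3 went from 1000.2 and 959 CPM to 338 and 353 CPM.

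Several families of surface and matrix proteins of cell contact and axon guidance had raised shares above the 12.5% of all genes and the 16.01% of protein-coding genes. Of 42 tested genes of the protocadherin clusters on chromosome 5, whose products let neurons tell one another apart, 23 rose and 0 fell, and their median log2 fold change was 1.17 against 0.0028 for all genes. PCDHGB5 rose from 0.652 and 0.379 CPM to 29.01 and 32.2 CPM and PCDHGA10 from 1.96 and 2.15 CPM to 15.7 and 17.7 CPM, whereas PCDHA4, the most abundant, had 76.6 and 81.2 CPM and 86.8 and 88.8 CPM and did not pass. Genes of the gamma cluster share their last exons, and 57.98% of PCDHGB5 is shared sequence, so counts may be split between them. With neighbouring genes, which in these clusters include other protocadherins, as an offset, 17 rose and 3 fell, and the median was 0.41.

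Of 20 ephrins and Eph receptors, which repel or attract growing axons, 9 rose and 0 fell, with a median of 0.52. EPHA5 rose from 0.593 and 0.821 CPM to 19.03 and 18.4 CPM, EPHA6 from 10.1 and 9.16 CPM to 45.1 and 41.2 CPM and EPHA7 from 45.5 and 46.5 CPM to 133 and 139 CPM. Both shAgo2 samples exceeded both wt samples in all 3. Of 31 semaphorins, plexins and neuropilins, another guidance system, 16 rose and 6 fell. The secreted ligand SEMA3A rose from 2.25 and 3.28 CPM to 27.8 and 28.2 CPM. With the offset 15 rose and 1 fell. The receptor PLXNA1, the most abundant member, fell from 228 and 217 CPM to 109 and 101 CPM.

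Of 12 laminin chains, the main glycoproteins of basement membranes, 4 rose and 0 fell, among them LAMC1, from 280.5 and 322 CPM to 704 and 618 CPM, and LAMB1, from 132 and 139 CPM to 339.7 and 313 CPM. Of 29 integrin subunits, the receptors of laminin and other matrix, 11 rose and 3 fell. ITGA4 rose from 7.29 and 7.01 CPM to 33.9 and 34.7 CPM, and ITGA7, a laminin receptor of muscle, fell from 33.1 and 32.4 CPM to 17.4 and 13.4 CPM. With the TPM-based counts 7 integrins rose. Collagens went both ways, with 11 of 40 raised and 8 lowered, or 13 and 5 with the offset. COL14A1, which sits on collagen fibrils, rose from 17.3 and 19.1 CPM to 266 and 261 CPM, and COL12A1 from 0.593 and 0.884 CPM to 12.6 and 10.4 CPM. VCAN, a large matrix proteoglycan, rose from 59.1 and 65.4 CPM to 313 and 296 CPM, whereas SPARC, which binds collagen, fell from 5.04 and 5.18 CPM to 0.148 and 0.164 CPM.

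Genes of epithelial and of mesenchymal cells were counted apart. Of 9 epithelial genes tested 5 rose and 0 fell, and of 8 mesenchymal genes 1 rose and 2 fell. EPCAM, an epithelial adhesion molecule, rose from 1.36 and 1.64 CPM to 37.2 and 37.01 CPM, and KRT8, a keratin of simple epithelia, from 20.2 and 19.3 CPM to 66.2 and 73.1 CPM. VIM, the mesenchymal intermediate filament vimentin, fell from 511 and 573 CPM to 215 and 254 CPM. SNAI2, a repressor of epithelial genes, fell from 7.53 and 7.14 CPM to 0.492 and 0.764 CPM, while its relative SNAI1 rose from 0.771 and 1.14 CPM to 4.13 and 4.37 CPM. CDH1, the defining epithelial cadherin, had 34.6 and 31.96 CPM in wt and 35.9 and 31.3 CPM in shAgo2 samples and did not pass (adjusted p = 0.914). Of 18 claudins of tight junctions 4 rose and 1 fell. Keratins were split, with 3 raised and 5 lowered of 13.

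In the Notch pathway 6 of 14 genes rose and 0 fell. These were the ligands DLL3, JAG1 and JAG2 and the targets HES1, HES4 and HEYL. The raised count was 4 with DESeq2 or the TPM-based counts and 3 with neighbouring genes as an offset. The receptor NOTCH2 had a log2 fold change of 0.022 (adjusted p = 0.919), NOTCH3 of -0.20 (adjusted p = 0.184) and NOTCH4 of 1.54 (adjusted p = 0.0470). JAG1 rose from 24.2 and 25.3 CPM to 77.5 and 71.7 CPM and HEYL from 8.12 and 7.14 CPM to 17.8 and 15.8 CPM. Of 25 WNT ligands and their Frizzled receptors 7 rose and 2 fell, with WNT16 at 1.19 and 1.07 CPM in wt and 6.15 and 6.11 CPM in shAgo2 samples. In the TGF-beta and BMP pathway 6 of 31 rose and 8 fell. Its ligand BMP2 rose from 1.01 and 1.20 CPM to 4.33 and 4.37 CPM, and its target ID1 fell from 11.1 and 13.8 CPM to 5.61 and 5.02 CPM.

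Receptor tyrosine kinases, to which EGFR and MET belong, changed in 12 raised and 6 lowered of 30 tested genes, with a median of 0.29. All 4 members of the EGFR family rose, ERBB2 by 0.45 (SE 0.0735) and ERBB3 by 0.52 (SE 0.108) beside EGFR and ERBB4. RET, the receptor of glial-derived neurotrophic factor, fell from 17.7 and 15.2 CPM to 2.16 and 1.97 CPM. Of the collagen receptors, DDR1 changed by 1.92 (SE 0.285) and DDR2 by -2.02 (SE 0.143). DDR1 lies in the MHC, so its value is uncertain for the haplotype copies named above. FGFR1, the most abundant receptor of the list, fell from 167 and 154 CPM to 91.3 and 86.7 CPM. Of 21 G1 regulators 3 rose and 4 fell, with a median of -0.13. The 3 raised were CCND1, CDK6 and the inhibitor CDKN1A. CCND1, cyclin D1, rose from 13.99 and 13.1 CPM to 63.5 and 64.4 CPM. CDK6 rose from 46.1 and 48.00 CPM to 143 and 147 CPM and CDKN1A from 2.96 and 2.59 CPM to 12.4 and 13.5 CPM. CCND2, cyclin D2, had 110.1 and 117 CPM and 89.4 and 85.8 CPM and did not pass (adjusted p = 0.0146).

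Zinc finger genes were counted by location. Of 234 ZNF genes of chromosome 19, most of which encode repressors of transposons and other DNA, 132 rose (56.4%) and 8 fell, with a median of 0.60. Of 226 on other chromosomes 47 rose and 54 fell, with a median of 0.016. ZNF227 rose from 29.2 and 28.9 CPM to 254 and 267 CPM and ZNF43 from 20.04 and 19.3 CPM to 143 and 141 CPM. ZNF711, on the X chromosome, rose from 21.8 and 19.9 CPM to 238 and 211 CPM. With neighbouring genes, many of them also ZNF genes, as an offset, 66 of the chromosome 19 genes rose, 23 fell and the median was 0.15, while 56 of the others rose and 26 fell. TRIM28, the corepressor that these proteins recruit, fell from 385 and 407 CPM to 142 and 148 CPM with a log2 fold change of -1.45 (SE 0.105).

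Genes of the interferon system rose in part. Of 40 genes 9 rose and 2 fell, with a median of 0.22. Sensors were among them: IFIH1, which detects long double-stranded RNA, rose by 4.15 (SE 0.564), RIGI, which detects RNA ends, from 9.25 and 9.98 CPM to 24.4 and 23.5 CPM, and STING1, which relays DNA sensing, from 3.26 and 2.65 CPM to 18.3 and 18.6 CPM. The effector PARP14 rose from 10.4 and 10.1 CPM to 40.6 and 38.4 CPM. The factors STAT2 (log2 fold change -0.50, SE 0.0711) and IRF9 (log2 fold change -0.67, SE 0.153), which switch such genes on, were lower, and ADAR, which edits double-stranded RNA, had 282 and 302 CPM and 238 and 251 CPM and did not pass. Of 13 genes of MHC class I and antigen processing 6 rose and 3 fell, a list whose values are uncertain for the haplotype copies named above.

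Immediate early genes, which respond first to growth signals, rose in 7 and fell in 1 of 18 cases. EGR1 rose from 0.771 and 0.947 CPM to 4.13 and 5.29 CPM, while EGR3 fell from 7.17 and 8.84 CPM to 2.95 and 2.02 CPM and JUN had 116 and 129.5 CPM and 129.5 and 131 CPM. IER3, also counted as raised, lies in the MHC. With the TPM-based counts 4 of the list rose. Of 20 known targets of the let-7 microRNA 6 rose and 4 fell. IGF2BP2, an RNA-binding protein, rose from 51.5 and 50.9 CPM to 109 and 116 CPM, HMGA2, a chromatin architectural protein, changed by 0.75 (SE 0.0864), and TRIM71, a repressor of mRNA in stem cells, fell from 24.4 and 24.3 CPM to 6.15 and 7.59 CPM. The median of the let-7 targets was -0.013 and its sign depended on the scaling.

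Among the lists that fell more often than they rose were those of protein synthesis and folding, energy supply and RNA decay. Their closer reference is the protein-coding genes, of which 18.7% fell and 16.01% rose. Of 20 cytosolic aminoacyl-tRNA synthetases, which load transfer RNA, 11 fell and 0 rose, with a median of -0.52. YARS1 fell from 339.6 and 339 CPM to 159 and 159 CPM and IARS1 from 558 and 619 CPM to 323 and 329 CPM. Among 31 genes of transfer RNA processing 7 fell and 3 rose, including METTL1, which methylates guanine in transfer RNA, from 29.1 and 30.2 CPM to 10.1 and 11.5 CPM. ELAC2, which trims the 3′ end of transfer RNA precursors, had 221 and 233 CPM and 179 and 186 CPM and did not pass (adjusted p = 0.0111).

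Of 13 heat shock chaperones 7 fell and 0 rose, with a median of -0.76. HSPH1 fell from 102 and 104 CPM to 31.2 and 31.99 CPM, and HSPA8, the constitutive Hsp70, from 1350.2 and 1564 CPM to 578 and 671 CPM. HSPA8 did not pass without wt replicate 2 (-1.12) or either shAgo2 replicate (-1.12 and -1.33). In the response to amino acid shortage and unfolded proteins 9 of 23 genes fell and 1 rose, or 5 and 3 with neighbouring genes as an offset. SLC7A5, a transporter of large neutral amino acids, fell from 90.4 and 86.6 CPM to 24.1 and 26.6 CPM, and PHGDH, the first enzyme of serine synthesis, from 259.8 and 276 CPM to 135 and 139 CPM. In glycolysis 9 of 18 genes fell and 2 rose, or 4 and 2 with the offset. HK2, hexokinase 2, fell from 102 and 114 CPM to 46.8 and 54.3 CPM.

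Ribosomal proteins and nuclear genes of mitochondrial function fell more often than they rose, in numbers that depended on the processing. Cytosolic ribosomal proteins had 26 lowered and 4 raised of 85, and a median of -0.24. The lowered count was 8 with neighbouring genes as an offset and 17 with the TPM-based counts. Mitochondrial ribosomal proteins had 28 lowered and 1 raised of 76, and nuclear genes of the respiratory chain 27 and 3 of 82. With the offset 17 and 14 were lowered, and DESeq2 gave 18 lowered mitochondrial ribosomal proteins. RPS9 fell from 118 and 111 CPM to 40.2 and 37.6 CPM and NDUFV1, a subunit of complex I, from 106 and 99.03 CPM to 41.3 and 44.5 CPM. Genes of the mitochondrial genome went the other way, with 7 raised and 0 lowered of 31. With the offset 2 were raised, but here the neighbours of each gene are the other genes of this list. The offset therefore removes any shift they share. MT-CO1, a subunit of cytochrome oxidase, rose from 1391 and 1585 CPM to 3070.3 and 3211 CPM. As 66.7% of its sequence is shared with other genes, its value is uncertain. Proteasome subunits fell in 12 and rose in 2 of 36 cases, and translation initiation factors in 17 and 3 of 54. With the offset 7 proteasome subunits and 10 initiation factors fell.

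Factors that act on the RNA itself were also counted. Of 18 genes of the nuclear RNA exosome and its partners 8 fell and 0 rose, and 4 fell with neighbouring genes as an offset. DIS3, its catalytic subunit, fell from 174 and 188 CPM to 89.3 and 87.3 CPM. EXOSC6 changed by -0.36 (SE 0.0725), but its neighbours on chromosome 16 had a median of -0.51, and with them as an offset its change was 0.15 (adjusted p = 0.130). Of 22 genes of deadenylation and decapping, the machinery that Ago2 recruits, 8 fell and 2 rose, with 5 lowered under the offset. EDC4, a decapping scaffold, fell from 179 and 183 CPM to 77.9 and 82.5 CPM. Of 22 hnRNP proteins 7 fell and 3 rose, and SR splicing factors had 2 lowered and 2 raised of 12.

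HOX genes, which set position along the body axis, fell more often than they rose. Of 38 genes 17 fell and 1, HOXD1, rose, with a median of -0.64. HOXC11 fell from 19.4 and 22.2 CPM to 2.85 and 2.89 CPM, HOXC10 from 18.7 and 18.8 CPM to 2.80 and 2.78 CPM and HOXB8 from 16.4 and 21.2 CPM to 3.79 and 3.66 CPM. HOXB3, the most abundant, had 132 and 135 CPM and 119 and 117 CPM and did not pass (adjusted p = 0.109). With neighbouring genes as an offset 12 fell and 1 rose. Replication-dependent histones had 3 raised and 6 lowered of 52.

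For the lists above with a count of 0 in one direction, DESeq2 gave 0 there as well. At an unadjusted p under 0.05 with edgeR, 1 protocadherin, 1 Eph gene, 1 laminin and 1 mitochondrially encoded gene were lower and 1 exosome gene was higher, while 0 Notch genes were lower and 0 synthetases and 0 chaperones higher.

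**Figure D3:**
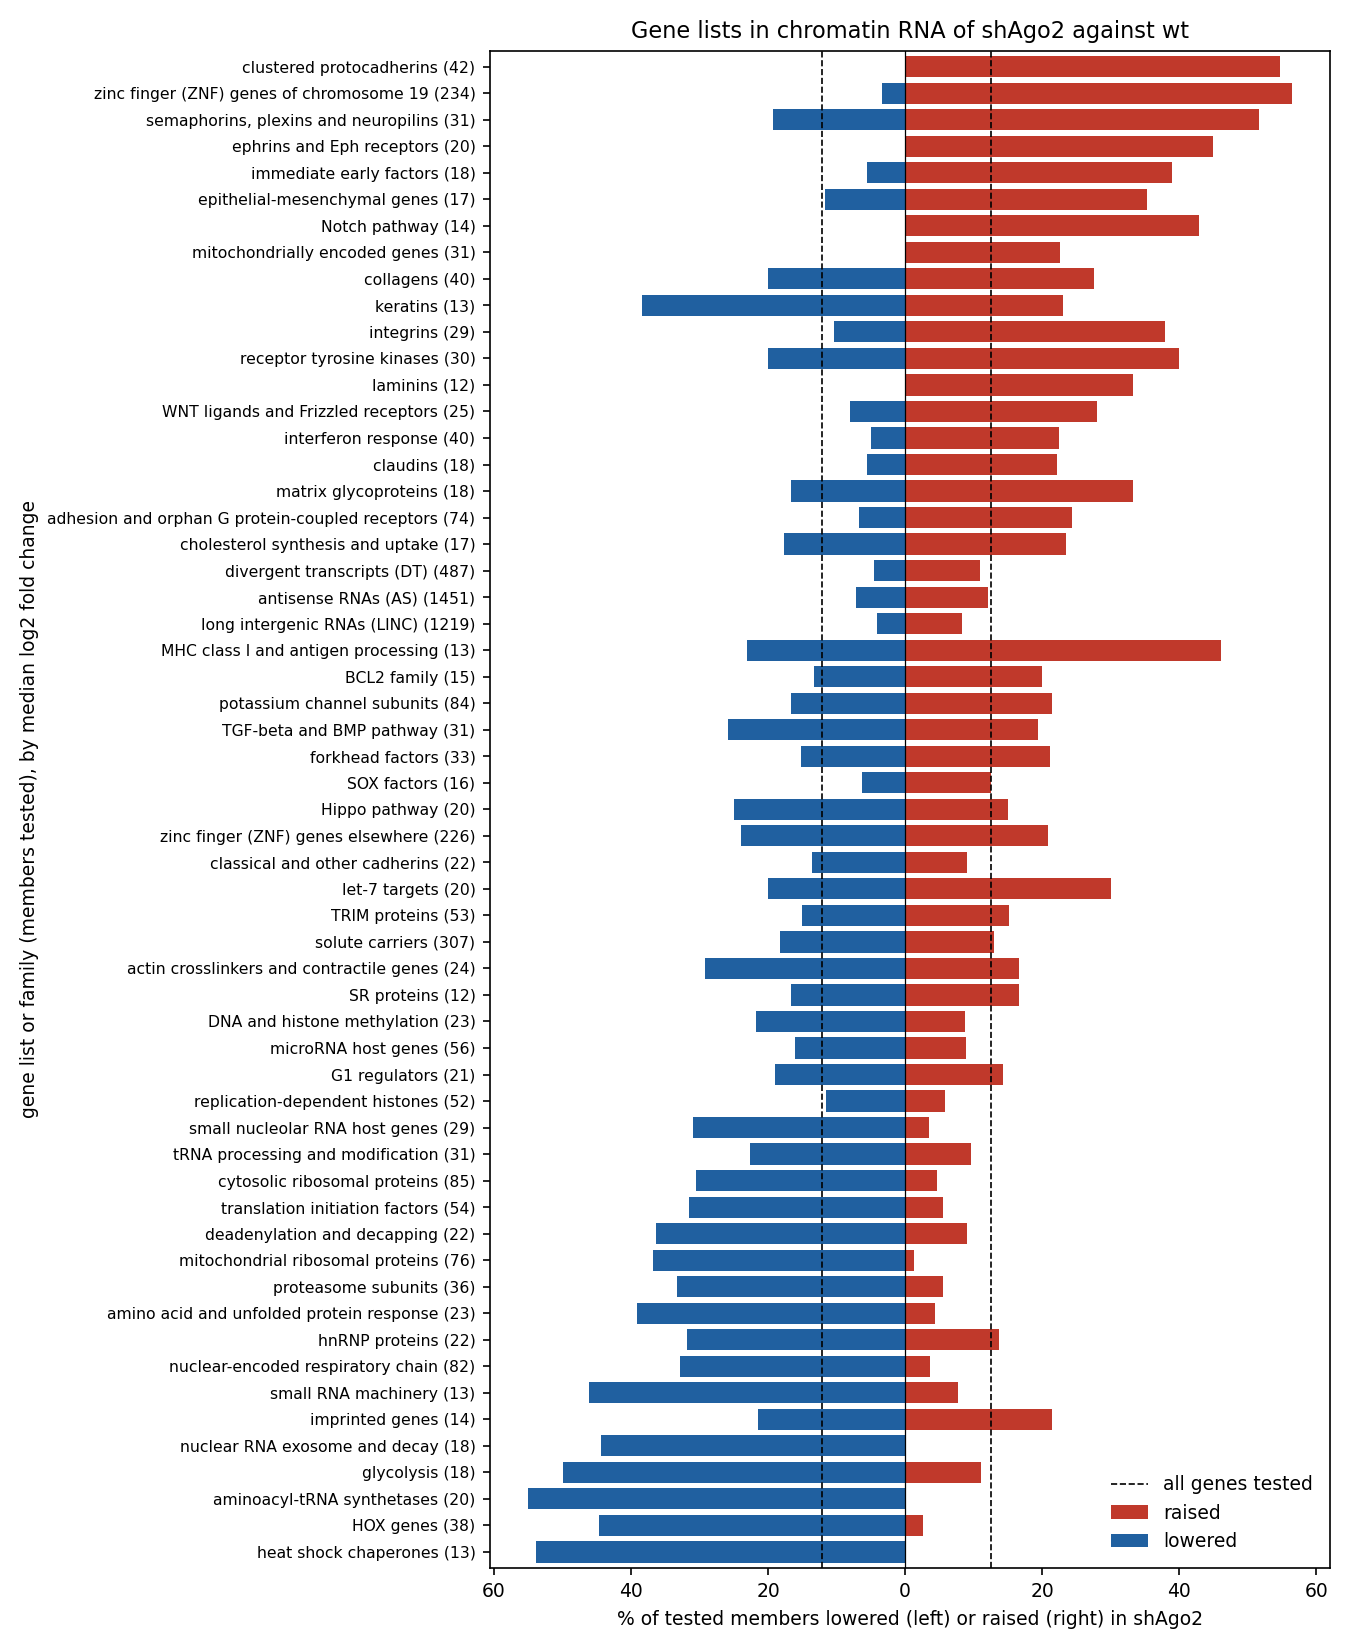
Percentage of tested members raised (right, red) or lowered (left, blue) for each list or family with at least 10 tested genes, ordered by median log2 fold change, with the number tested in brackets and the shares of all tested genes as dashed lines (12.5% and 12.1%). Protein-coding genes as a class had 16.01% raised and 18.7% lowered (not drawn). Surface, guidance and chromosome 19 zinc finger genes stand at the top, and chaperones, HOX genes, aminoacyl-tRNA synthetases and glycolysis at the bottom.

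Other lists moved without a common direction. Actin crosslinkers and contractile genes had 4 raised and 7 lowered of 24. With the offset 2 rose. The plastin LCP1 rose from 1.36 and 1.45 CPM to 82.7 and 90.3 CPM and its relative PLS3 fell from 285 and 313 CPM to 106 and 116 CPM, and the filamin FLNC fell from 156 and 167 CPM to 42.98 and 32.5 CPM while FLNA had 941 and 937 CPM and 993 and 931 CPM. In the Hippo pathway AMOT, which holds the coactivator YAP outside the nucleus, fell from 1083 and 1315 CPM to 223 and 204 CPM, and the YAP target CCN2 rose from 1.78 and 1.83 CPM to 6.25 and 5.73 CPM. In the BCL2 family the BH3-only genes PMAIP1 (log2 fold change 1.34, SE 0.121) and BMF (log2 fold change 1.26, SE 0.114), which promote apoptosis, rose beside BCL2. BAX and BID, also promoters of apoptosis, were lower by log2 fold changes of -0.47 (SE 0.104) and -0.55 (SE 0.121), a call that neither kept when scaled by library size only, and MCL1 did not pass (-0.093, adjusted p = 0.519). Genes of cholesterol synthesis had 4 raised and 3 lowered of 17, imprinted genes 3 and 3 of 14, and genes of DNA and histone methylation 2 and 5 of 23. With the offset the lowered counts were 1, 1 and 3. Potassium channel subunits (18 raised and 14 lowered of 84), solute carriers (40 and 56 of 307), forkhead factors (7 and 5 of 33), TRIM proteins (8 and 8 of 53) and cadherins outside the clusters (2 and 3 of 22) were split as well. Adhesion and orphan G protein-coupled receptors rose more often, 18 of 74 with 5 lowered, and matrix glycoproteins had 6 raised and 3 lowered of 18. SOX factors had 2 and 1 of 16, SOX5, a factor of neural and cartilage development, rising from 2.13 and 1.64 CPM to 18.8 and 19.2 CPM. Of 5 Schlafen genes 2 rose. Of 9 cancer-testis antigens 0 passed with edgeR or DESeq2, and 1 had an unadjusted p under 0.05.

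When protein-coding genes were grouped by the letters at the start of their symbol, 232 groups had at least 10 tested members. The 8 with the largest medians were PCDHGA (1.92), CAMK (0.82), PSG (0.78), MYO (0.61), RGS (0.61), HLA (0.50), FNDC (0.50) and PCDHB (0.44). Unconventional myosins (MYO) had 11 raised of 23, and calmodulin-dependent kinases (CAMK) 7 raised and 1 lowered of 10. The 8 with the smallest medians were HOXA (-0.72), SF (-0.64), MCM (-0.49), NPIPB (-0.46), NDUFB (-0.42), NAA (-0.40), EEF (-0.40) and NOL (-0.40). Of the SF group, mostly subunits of the splicing factor SF3, 7 of 10 fell, and of the replication helicase subunits and relatives (MCM) 6 of 10.

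Median log2 fold changes by nuclear chromosome ranged from -0.37 to 0.27. On chromosome 16, 435 of 1520 tested genes fell and 22 rose, with a median log2 fold change of -0.37. Chromosomes 20, 21, 22 and 11 had medians of -0.28, -0.27, -0.27 and -0.26. On chromosome 5, 361 of 1536 genes rose and 75 fell, with a median of 0.27, and chromosomes 15, 6 and 18 had medians of 0.18, 0.17 and 0.17. Against shDicer samples the medians of chromosomes 16 and 5 were -0.055 and 0.051, whereas that of chromosome 6 was 0.21, with 94 genes higher and 7 lower. Chromosome 12 had a median of -0.14 against shDicer samples, with 12 genes higher and 133 lower of 1736 tested. Against DroshaKD samples the medians of chromosomes 16 and 5 were -0.29 and 0.21. The part of gene copy number in these shifts was not tested.

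**Figure D4:**
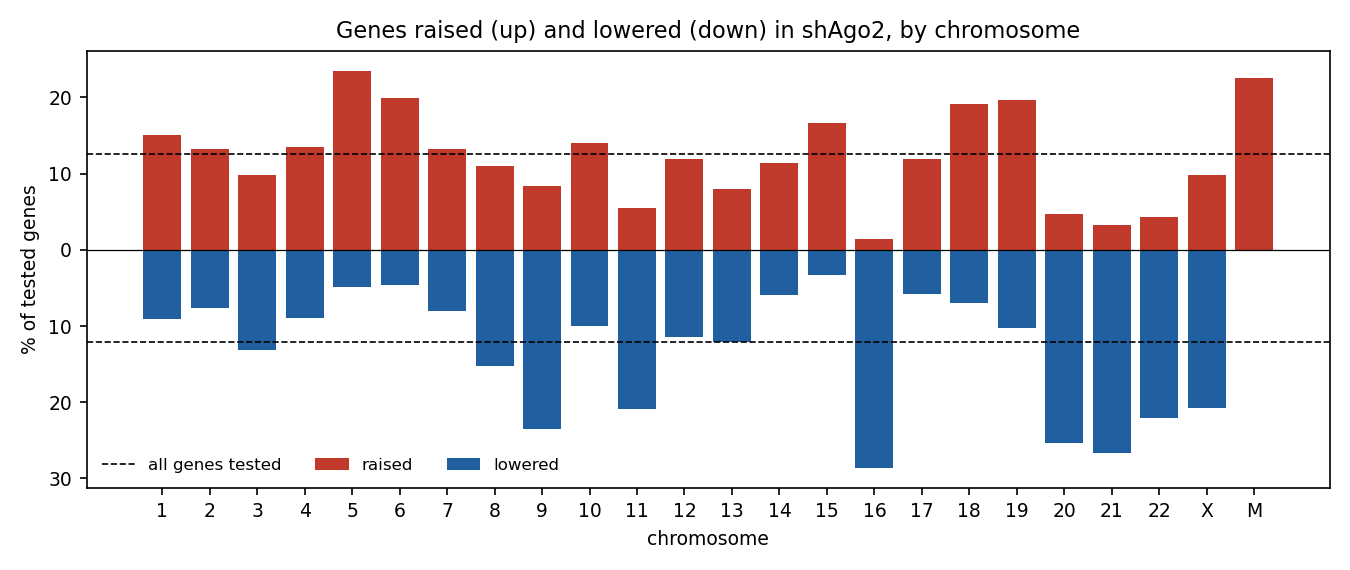
Percentage of tested genes raised (above 0, red) and lowered (below 0, blue) in shAgo2 samples for each chromosome and the mitochondrial genome (M), with the shares of all tested genes as dashed lines. Chromosomes 16, 20 and 21 have more lowered than raised genes and chromosomes 5 and 15 more raised than lowered ones.

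Direct comparison with the other inducible line, shDicer, gave far fewer differences than comparison with wt. With 441 genes higher (1.34% of those tested) and 450 lower (1.37%) in shAgo2 samples, the directions were nearly balanced. Against DroshaKD samples, 3804 genes were higher (11.6%) and 3399 lower (10.3%). Of the named surface families, 12 protocadherins were higher and 2 lower in shAgo2 than in shDicer samples, and 24 ZNF genes of chromosome 19 were higher. YARS1 and JAG1 did not pass between these 2 lines, with differences of 0.043 (adjusted p = 0.782) and 0.23 (adjusted p = 0.248). Without shAgo2 replicate 1 or 2 the counts against shDicer fell to 73 and 71 higher and 56 and 36 lower. They also fell to 213 and 200 with a replicate block and to 123 and 121 when transcripts without annotation were kept, so the number of genes that differ between the lines is uncertain.

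Of the 32874 genes tested, 257 were higher in shAgo2 samples than in wt, shDicer and DroshaKD samples alike, and 179 were lower than in all 3. TENM1, a teneurin of synaptic adhesion on the X chromosome, had 6.17 and 6.57 CPM in wt, 8.05 and 10.9 CPM in shDicer, 10.3 and 9.47 CPM in DroshaKD and 317 and 293 CPM in shAgo2 samples. ADGRL3, a latrophilin receptor that binds teneurins, had 4.68 and 4.74 CPM in wt, 1.16 and 1.38 CPM in shDicer, 5.25 and 4.79 CPM in DroshaKD and 45.6 and 44.1 CPM in shAgo2 samples. Both shAgo2 samples lay above every sample of the other groups in both genes, which were picked by these same contrasts, so this is a description. LSAMP, a neuronal adhesion molecule, had 24.3 and 24.3 CPM in shAgo2 and 4.05 and 4.82 CPM in shDicer samples, and LINC02506 25.4 and 28.7 and 5.21 and 5.35 CPM. CYTOR and YPEL4, higher than in wt in both lines, were higher in shAgo2 than in shDicer samples by 0.61 and 0.74. In the other direction, LRATD2 had 68.8 and 68.2 CPM in wt, 88.8 and 94.7 CPM in shDicer, 49.9 and 46.8 CPM in DroshaKD and 6.49 and 5.90 CPM in shAgo2 samples. CACNA1H, a T-type calcium channel, had 3.88 and 3.49 CPM in shAgo2 and 6.47 and 6.94 CPM in shDicer samples, and DPYSL4, which acts in axon growth, 3.64 and 3.82 and 6.47 and 6.83 CPM. NEFM, HOTAIR and U2AF1 differed from shDicer samples by -1.42, -1.10 and -3.11 on the log2 scale, of which that of U2AF1 is uncertain for the reason given above.

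Some genes that changed against wt had moved further in shDicer samples. FLNC was higher in shAgo2 than in shDicer samples by 2.53 (adjusted p = 2.39e-05), with 6.32 and 6.78 CPM there, and AMOT by 1.70 (adjusted p = 4.23e-04), with 53.4 and 77.6 CPM. TRIM71 was higher by 1.10 (adjusted p = 0.00137). KRT19 and PMAIP1, raised against wt, were lower in shAgo2 than in shDicer samples, at -0.79 (adjusted p = 0.00113) and -0.67 (adjusted p = 0.00267).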

How the data were processed

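Chromatin RNA of 8 samples was used, 2 per group, labelled HEK293 (HEK293T and HEK293T-REx in the study's methods). The authors quantified the reads with kallisto on Ensembl cDNA and non-coding RNA (hg38) and deposited estimated counts (expected counts) and TPM per transcript. Intronic reads are therefore counted only where an annotated transcript, such as one with a retained intron, covers them. Bowtie, TopHat2 and DESeq2 are also named in the submitters' processing notes. Effective lengths were deposited too. Counts were summed per gene through GENCODE 44 (193697 of 217082 transcripts matched), rounded, filtered with filterByExpr (32874 genes), scaled by TMM and tested with edgeR 4.0.16 in R 4.3.3 (quasi-likelihood, 8 samples in one fit, Benjamini-Hochberg adjustment, adjusted p under 0.005). The SE is the log2 fold change divided by the square root of F. The scripts were tested on simulated data.

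Genes, lists and families were chosen with earlier results of these data known. Named are the Argonautes and DICER1, genes the study followed, the 12 coding genes and 6 long non-coding RNAs with the largest changes in each direction (mean log2 CPM of at least 3, groups apart, under 50% of 31-base subsequences shared), the leading and most abundant members of each list, and the 6 largest changes in each direction that passed against all 3 other groups. Members outside these (BAX, BID, CDH1, DDR1, DLL3, ERBB2, ERBB3, HES1, HMGA2, HOXD1, IER3, IFIH1, IRF9, JAG2, NOTCH3, NOTCH4, SNAI1 and STAT2) were named after their values were seen. Alternatives were other scaling, filters, thresholds and transcript lengths, DESeq2 1.42.0, a replicate block, an offset from 50 neighbouring genes and leaving out each sample. Small RNA and mRNA samples were not used here. A few items are not reported here.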

Additional observations from a re-analysis of the deposited data

Results flagged for a closer look

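Groups of 2 samples were too small to look for samples that stand apart. For 36 of the 277 named genes, the effects of the 2 inducible lines differed by the direct edgeR test of shAgo2 against shDicer samples at an adjusted p under 0.005, which 1.34% and 1.37% of all tested genes passed in the upward and downward direction. Many named genes were chosen for large changes of shAgo2 against wt, and the same shAgo2 samples enter this test. Their number is therefore a description and cannot be judged against the share of all genes. Values below are log2 differences of shAgo2 relative to shDicer samples. TENM1 (5.01) and ADGRL3 (5.14) stood highest, followed by FLNC (2.53), PCDHGB1 (2.47), LSAMP (2.45) and LINC02506 (2.35). ADGRL3, FLNC, AMOT (1.70) and TRIM71 (1.10) were lower in shDicer samples than in wt. ZNF43 (1.55), the calcium exchanger SLC8A1 (1.50), EPHA5 (1.24), EPHA6 (1.03), DICER1 (0.95), VCAN (0.88), YPEL4 (0.74), CYTOR (0.61) and LINC00665 (0.54) were higher in shAgo2 samples as well. Lower in shAgo2 samples were LRATD2 (-3.88), U2AF1 (-3.11), NEFM (-1.42), ITGA7 (-1.20), HOTAIR (-1.10) and RPS9 (-1.01). The same held for TARBP2 (-0.86), CACNA1H (-0.86), DPYSL4 (-0.84), METTL1 (-0.81), the serine hydroxymethyltransferase SHMT2 (-0.81), KRT19 (-0.79), the cholesterol enzyme DHCR7 (-0.73) and CDH2 (-0.71), N-cadherin. Smaller differences were those of PMAIP1 (-0.67), HSPH1 (-0.63), the mitochondrial ribosomal protein MRPS6 (-0.55), AGO2 (-0.52) and PLXNA1 (-0.50). The 6 genes named for passing against every other group in each direction were selected by this test, so their values are a description. Of the 450 genes lower in shAgo2 than in shDicer samples, 133 lay on chromosome 12, where 12 genes were higher. TARBP2, METTL1, SHMT2, ITGA7 and HOTAIR are among these 133, so their differences may not be separate from one another. The part of differences between the 2 stable lines in these values was not tested.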

How the results depend on the processing

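Counts of raised and lowered genes kept within 1.5 times the values above under other scaling, filters, DESeq2, the 2 groups alone and transcripts kept without annotation, other than as follows. With an adjusted p under 0.05 there were 6867 raised and 6634 lowered genes against wt, 1594 and 1621 against shDicer and 6316 and 6101 against DroshaKD. With a log2 fold change above 1 in size there were 2135 and 1143, 174 and 115, and 1868 and 967. With neighbouring genes as an offset 2598 genes were lowered. Against shDicer, no filter on low counts gave 662 and 752, a replicate block 213 and 200, counts scaled by transcript length 198 and 199, and unannotated transcripts kept 123 and 121. Leaving out each sample gave from 2341 to 2682 raised and from 2004 to 2324 lowered genes against wt, from 71 to 273 and from 36 to 302 against shDicer, and from 2199 to 2858 and from 1489 to 2811 against DroshaKD. The cause of these differences was not tested. As a share of TPM, long non-coding RNA differed by 1.01 and retained-intron transcripts by -0.99 percentage points, and without NEAT1, an alternative chosen after seeing the data, long non-coding RNA by 1.15. EXOSC6 reversed to 0.15 with neighbouring genes as an offset. Same-numbered replicates of wt and shAgo2 correlated with 0.0085, so the numbers do not pair samples, and with the replicate block 3559 genes were raised and 3310 lowered. With 2 samples a group, many small differences could be missed.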

Other observations

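The following was looked at after the values were seen. The region between TRIM27 and VPS52 on chromosome 6 (28903002 to 33272047 in GRCh38) spans the MHC. In it, 42 of 172 tested genes were raised (24.4%) and 14 lowered (8.14%) in shAgo2 samples, with a median change of 0.19. On chromosome 6 as a whole, 19.9% were raised and 4.67% lowered, with a median of 0.17. TRIM27 and VPS52, which bound the region, had themselves changed. Whether the region differs from the rest of its chromosome was not tested. TRIM26, a ubiquitin ligase of this region, had 0 counts in both wt and both DroshaKD samples, 324 and 292 counts in shAgo2 and 221 and 228 counts in shDicer samples. TRIM27, a relative of TRIM26, had 3.79 and 6.88 CPM in wt and 53.2 and 60.4 CPM in shAgo2 samples. In MGMT the pattern was the same, with 722 and 813 counts in shDicer samples. The haplotypes of the lines were not compared here.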
